A study of Rattus norvegicus with 4 samples.

Results

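Gal, Vip, Npy, Vgf, Reg3b and Il24 encode peptides and small proteins that cells secrete, and this account follows them through sections of rat trigeminal nerve and ganglion. All 6 were found, each once, by symbol among the 32623 genes of the count matrix. They had been chosen from these same data for their higher counts in the TN areas than in HC and for their detection beside Atf3. Their values in those contrasts are therefore given as a description, without a p-value. Their detection beside sensory neuron genes was also among the values known at that choice. RNA was captured on 4 Visium areas, whose spots each take up the RNA of several cells, and is counted as unique molecular identifiers (UMIs). The TN1, TN2 and TN3 areas held the root, the ganglion and the first stretch of the branches of the trigeminal nerve from the compressed side of 1 rat each. The HC area held tissue of 2 rats, which the barcodes do not tell apart. All were wild type adult male Sprague-Dawley rats, and tissue was taken days after chronic unilateral compression of the trigeminal root, once behavioural tests had become stable. The series description takes the HC tissue from the healthy side of 2 of the 3 TN animals whereas the methods describe sham-operated controls, so HC and TN tissue may come from the same animals. HC is 1 sample, and condition cannot be told apart from capture area.

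Injury of a peripheral nerve axon is known to change the peptides that its sensory neuron makes. In uninjured sensory ganglia the main neuropeptides are CGRP and substance P of small-diameter neurons, while galanin, vasoactive intestinal peptide and neuropeptide Y are scarce and increase after axotomy. Such peptides are stored in large dense-core vesicles and act on G protein-coupled receptors of neurons, glia, vessels and immune cells. The transcription factor Atf3 is a standard label of neurons with a damaged axon. It belongs to the ATF/CREB family, whose members bind the cAMP response element.

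The areas held 1587 (TN1), 1256 (TN2), 1917 (TN3) and 2013 (HC) spots and between 23546025 and 41335930 UMIs. A sensory neuron spot was a spot with at least 1000 UMIs, of which 12 sensory neuron genes together took at least 1500 CPM, that is, UMIs per 1000000 UMIs of the same spots (among them Avil, Prph, Isl1, Pou4f1, Scn9a, Scn10a, Calca and Tac1). This held for 704, 700 and 685 spots of TN1, TN2 and TN3 and for 1681 of HC, or 44.4%, 55.7%, 35.7% and 83.5% of each area. The class is a range and not a cell type, since between 462 and 874 spots per area lay within a factor of 2 of the cut. The summed level of the 12 genes in these spots was 5118 to 6509 CPM in the TN areas and 6888 in HC. Depth differed, with a median of 35871.5 UMIs per sensory neuron spot in TN2, 20493 in TN3, 11506 in TN1 and 16427 in HC. Beside the neurons, 5 of 6 connective tissue genes and 5 of 6 macrophage genes were higher in the sensory neuron spots of all 3 TN areas than of HC. The summed connective tissue level was 1529 to 5211 CPM in TN and 1547 in HC, and the summed macrophage level 298 to 671 CPM in TN and 193 in HC. The part of these cells in the levels given here was not tested, and in a spot fewer cells of a type and less RNA per cell cannot be told apart. The defining genes Chat and Mnx1 of motor neurons and Hand2 of autonomic neurons had 0 UMIs in the sensory neuron spots of all 4 areas. Other genes of these cells were found there. The summed level of 5 motor neuron genes was 1.55, 0.345 and 0.251 CPM in TN1, TN2 and TN3 and 0.961 in HC. That of 6 autonomic neuron genes was 3.51, 0.729, 0.629 and 2.67 CPM, with 1 gene higher in all 3 TN areas. The part of such cells was not tested.

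The sequence before each gene's start is shown with matches to known elements, among them that of the ATF/CREB family. It is a description, and its part in the levels was not tested. The 200 bases before the RefSeq start of each gene were read from assembly GRCr8, in the direction of transcription. Capitals mark every match, on either strand, to the cAMP response element TGACGTCA, its core TGACG, the AP-1 site TGANTCA, the STAT site TTCNNNGAA and the TATA element TATAAA, where N is any base.
Gal, chr1:210084573-210084772, minus strand: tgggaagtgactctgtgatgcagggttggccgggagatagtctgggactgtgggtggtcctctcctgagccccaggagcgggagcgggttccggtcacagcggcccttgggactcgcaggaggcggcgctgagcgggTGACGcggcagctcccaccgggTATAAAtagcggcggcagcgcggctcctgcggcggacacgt
Vip, chr1:44470280-44470479, plus strand: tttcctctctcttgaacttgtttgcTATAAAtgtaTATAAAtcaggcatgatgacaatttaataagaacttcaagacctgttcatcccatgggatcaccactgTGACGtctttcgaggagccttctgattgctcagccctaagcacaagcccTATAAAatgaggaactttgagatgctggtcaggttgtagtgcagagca
Vgf, chr12:25277021-25277220, minus strand: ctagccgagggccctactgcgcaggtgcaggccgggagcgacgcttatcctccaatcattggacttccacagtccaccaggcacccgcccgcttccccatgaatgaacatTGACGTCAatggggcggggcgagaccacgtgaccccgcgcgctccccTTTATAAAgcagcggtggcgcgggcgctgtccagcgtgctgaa
Reg3b, chr4:112419576-112419775, plus strand: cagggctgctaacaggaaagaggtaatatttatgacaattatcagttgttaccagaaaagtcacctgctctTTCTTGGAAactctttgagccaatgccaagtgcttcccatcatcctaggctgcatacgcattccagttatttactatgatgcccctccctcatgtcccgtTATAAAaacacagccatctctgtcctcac
Il24, chr13:44910761-44910960, minus strand: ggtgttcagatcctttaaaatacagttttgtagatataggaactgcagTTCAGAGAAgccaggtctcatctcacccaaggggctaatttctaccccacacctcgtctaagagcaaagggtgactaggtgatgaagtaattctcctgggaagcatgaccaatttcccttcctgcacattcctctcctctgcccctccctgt
Npy, chr4:80211911-80212110, plus strand: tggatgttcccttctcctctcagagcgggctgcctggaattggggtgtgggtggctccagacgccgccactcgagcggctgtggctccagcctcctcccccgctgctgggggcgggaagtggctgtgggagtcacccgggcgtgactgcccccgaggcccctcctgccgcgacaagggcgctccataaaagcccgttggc
The whole element TGACGTCA stood in the Vgf stretch, 90 to 83 bases before the start, and in 1.46% of the 33469 stretches of this length in the table. Its core TGACG stood before Gal (63 to 59 bases), Vip (97 to 93 bases) and Vgf, or 3 of 6, and before 15.9% of all starts. In Vgf its matches are the ends of the whole element. TTCNNNGAA stood before Reg3b and Il24 and in 6.07% of all stretches. TATAAA stood before Gal, Vip, Vgf and Reg3b and in 10.4% of all, with 3 matches in Vip and 2 that overlap, 1 on each strand, in Vgf. TGANTCA, in 4.97% of all stretches, was found in none (0) of the 6. These are letters in a short window, and binding was not measured.

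All 6 genes were higher in the sensory neuron spots of each TN area than in those of HC, by at least 2-fold in every area. Of the 15503 genes with at least 10 UMIs in these spots, 500, or 3.23%, met the same rule. The members were chosen on this contrast, so nothing is read from their count. Over all spots, where the 6 met the rule as well, it was met by 4.0% of genes. In a test of the sums with edgeR's quasi-likelihood method, 0 of 13840 genes (0%) passed an adjusted p of 0.05 for TN against HC, although 1091 had an unadjusted p under 0.05 and DESeq2 called 123.

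**Figure D1:**
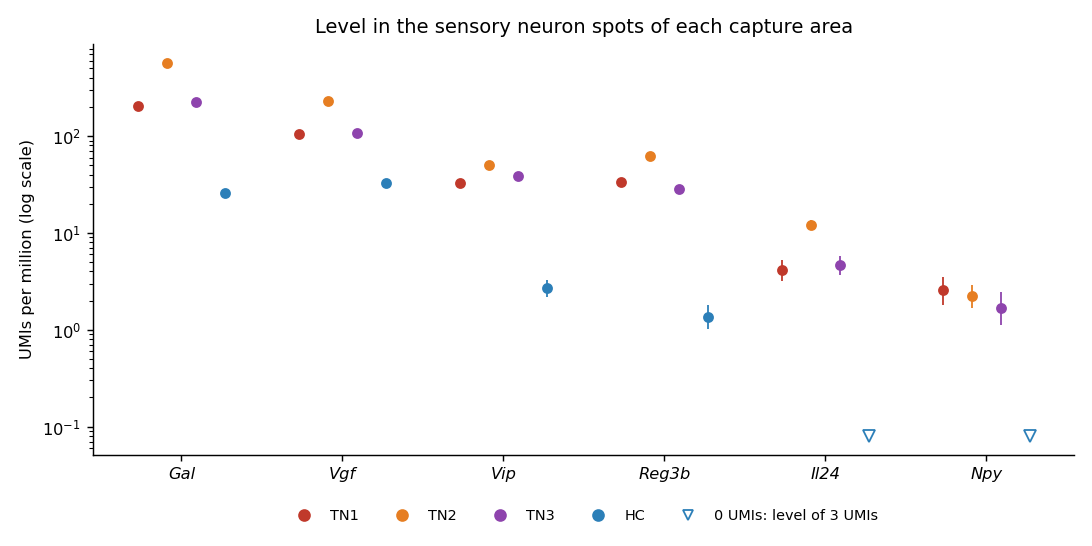
The level of each gene in the sensory neuron spots, in CPM on a log axis, for the areas TN1, TN2, TN3 and HC. Points are the level of 1 area and bars the exact 95% Poisson interval, which covers counting error only. Open triangles stand for 0 UMIs and are drawn at the level of 3 UMIs. HC lies below every TN area for all 6 genes, and TN2 lies highest for all but Npy.

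Gal (ENSRNOG00000015156) encodes galanin, a neuropeptide with mostly inhibitory receptors that also promotes neurite outgrowth. It stood at 204, 564 and 225 CPM in the sensory neuron spots of TN1, TN2 and TN3, from 3023, 14697 and 3581 UMIs, and at 26.1 CPM in HC, from 977 UMIs. The 3 TN areas were thus 7.83, 21.6 and 8.63 times as high as HC (mean 331 ± 202 CPM, SD, n = 3). TN2 was 2.76 times as high as TN1, a gap far wider than the counting error, whereas TN1 and TN3 lay close together. Single spots reached 100, 194 and 101 UMIs of Gal in TN1, TN2 and TN3, against 13 in HC.

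Vgf (ENSRNOG00000001416) encodes a granin-like precursor that is cut into several bioactive peptides. Its level was 105 CPM in TN1, 232 in TN2 and 106 in TN3, and 32.4 CPM in HC. These are 3.24, 7.16 and 3.28 times HC, the smallest ratios among the 6 genes (mean 148 ± 72.9 CPM, SD, n = 3). Again TN2 lay highest, while the Poisson intervals of TN1 (99.9 to 110 CPM) and TN3 (101 to 112 CPM) overlapped. In HC, 679 of 1681 sensory neuron spots held Vgf before thinning.

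Vip (ENSRNOG00000018808) encodes vasoactive intestinal peptide, a vasodilator and immune modulator. It stood at 32.5, 50.1 and 38.7 CPM in TN1, TN2 and TN3 and at 2.70 CPM in HC. The ratios to HC were 12.1, 18.6 and 14.3 (mean 40.4 ± 8.94 CPM, SD, n = 3), and the TN areas differed from each other by at most 1.54 times. The Vip of HC lay in few spots. Of its 101 UMIs, 23 came from 1 spot, and 6 of the 55 spots with Vip held 50%. In the TN areas 18 to 58 spots held 50%, out of 149, 404 and 223 spots with Vip in TN1, TN2 and TN3. HC thus had fewer spots with Vip altogether, and a tighter gathering within them is not shown.

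Reg3b (ENSRNOG00000006151) encodes a secreted C-type lectin of the regenerating islet-derived family, known as an antimicrobial protein of the gut and as a factor released by regrowing nerve cells. Its level in TN1, TN2 and TN3 was 33.3, 62.1 and 28.1 CPM, based on 492, 1620 and 447 UMIs. In HC 51 UMIs gave 1.36 CPM. TN1, TN2 and TN3 were therefore 24.4, 45.6 and 20.6 times as high (mean 41.2 ± 18.3 CPM, SD, n = 3).

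Il24 (ENSRNOG00000004470), a cytokine of the IL-10 family that signals through the IL-20 receptors, was not detected in HC. There were 0 UMIs in all 2013 HC spots, against 61, 318 and 74 UMIs in the sensory neuron spots of TN1, TN2 and TN3. These gave 4.12, 12.2 and 4.65 CPM (mean 6.99 ± 4.52 CPM, SD, n = 3). Set against a floor of 3 UMIs in the HC sum, the TN areas were at least 51.5-fold, 152-fold and 58.1-fold higher.

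Npy (ENSRNOG00000046449), the precursor of neuropeptide Y, a peptide with mostly presynaptic inhibitory receptors, was the scarcest in counts. TN1, TN2 and TN3 had 38, 58 and 27 UMIs in sensory neuron spots, or 2.57, 2.22 and 1.70 CPM (mean 2.16 ± 0.439 CPM, SD, n = 3). HC had 0 UMIs there and 1 UMI in the whole area. Against the floor of 3 UMIs the TN areas were at least 32.1-fold, 27.8-fold and 21.2-fold higher. The order of the TN areas was not that of the other genes, but their Poisson intervals (1.82 to 3.53, 1.69 to 2.88 and 1.12 to 2.47 CPM) overlapped. No TN spot held more than 2 UMIs of Npy.

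Over all spots of an area, with no choice of spots, the lowest ratio of a TN area to HC was 4.73 for Gal, 2.04 for Vgf, 8.95 for Vip, 13.2 for Reg3b and at least 36.3 for Il24. Npy stood at 1.74, 1.60 and 1.18 CPM over all spots of TN1, TN2 and TN3 and, from its 1 UMI, at 0.0242 CPM in HC, with a Poisson interval up to 0.135 CPM. With TMM normalization the ratios in sensory neuron spots ran from 3.08 for Vgf in TN1 to at least 143 for Il24 in TN2, so each stayed above 2.

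Because the areas differed in depth, shares of spots with a UMI were taken after each spot had been thinned to 5000 UMIs. This left 599, 681, 599 and 1536 sensory neuron spots in TN1, TN2, TN3 and HC and removed 105, 19, 86 and 145 shallower ones. Gal was then in 37.6%, 75.8% and 51.6% of the spots of TN1, TN2 and TN3 and in 13.7% of HC. Without thinning these shares were 55.5%, 97.6%, 78.1% and 35.7%. Either way each TN area lay above HC and TN2 lay highest. In TN1, TN2 and TN3 Vgf was in 30.2%, 60.2% and 33.1% of spots, against 12.9% in HC. Vip was in 7.51%, 19.8% and 12.5% of the TN spots and in 1.24% of HC. For Reg3b the shares were 7.18%, 20.4%, 9.02% and 0.326%. In HC no interval reached the lowest TN interval for these 4 genes.

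Il24 was in 0.835%, 6.90% and 1.67% of the thinned spots of TN1, TN2 and TN3 and Npy in 1.0%, 0.587% and 1.17%. Both were in 0 of 1536 HC spots, which allows a share of up to 0.195% by a limit of 3 spots and up to 0.240% by the exact binomial interval. For Npy, the exact binomial interval of TN2 (0.160% to 1.5%) overlapped that of HC (0% to 0.240%), so a higher share was not detectable there at this depth. These intervals cover counting error only.

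Spots led by genes of central myelin, where ganglion neurons should be lacking, gave the background. The members were chosen with their detection beside sensory neuron genes known, so this comparison of classes is a description. At 5000 UMIs, Vip was in 1 of 82, 2 of 43 and 1 of 50 central myelin spots of TN1, TN2 and TN3, and Reg3b in 1, 1 and 0. Vgf was in 8, 3 and 7 of them, Il24 in 0, 1 and 1, and Npy in 0 in each. Their median depths before thinning were 8612.5, 9109 and 6884 UMIs, against 14110, 36497 and 23273 in the sensory neuron spots kept for thinning. The intervals of the 2 classes lay apart for Vgf in all 3 areas and for Vip and Reg3b in TN2, and overlapped for Vip and Reg3b in TN1 and TN3. In spots led by genes of peripheral myelin, Vip was in 2.01% (0.655% to 4.62%) in TN1 and 2.59% (1.12% to 5.04%) in TN3. Both intervals lay below those of the sensory neuron spots. Reg3b was in 3.21% (1.40% to 6.23%) in TN1, which overlapped, and 1.29% (0.354% to 3.28%) in TN3, which lay below. In TN2, with 20 peripheral myelin spots, the intervals of both genes overlapped. The shares of Npy and Il24 in any area could not be told from those of central or peripheral myelin spots at this depth. Gal stood apart, at 15.9%, 46.5% and 44.0% of the central myelin spots of TN1, TN2 and TN3, and in TN3 this overlapped the interval of the sensory neuron spots. In peripheral myelin spots Gal was in 14.9%, 25.0% and 12.9% in TN1, TN2 and TN3, with each interval below that of the sensory neuron spots. In HC, Gal was in 19.3% of central myelin spots (29 of 150) and in 13.7% of sensory neuron spots, so its share in the latter did not exceed that in central myelin. Its level in HC was also higher in central myelin spots (59.9 CPM) than in sensory neuron spots (26.1 CPM). For Gal in HC the central myelin spots therefore do not serve as a background. The source of the Gal in them was not tested.

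**Figure D2:**
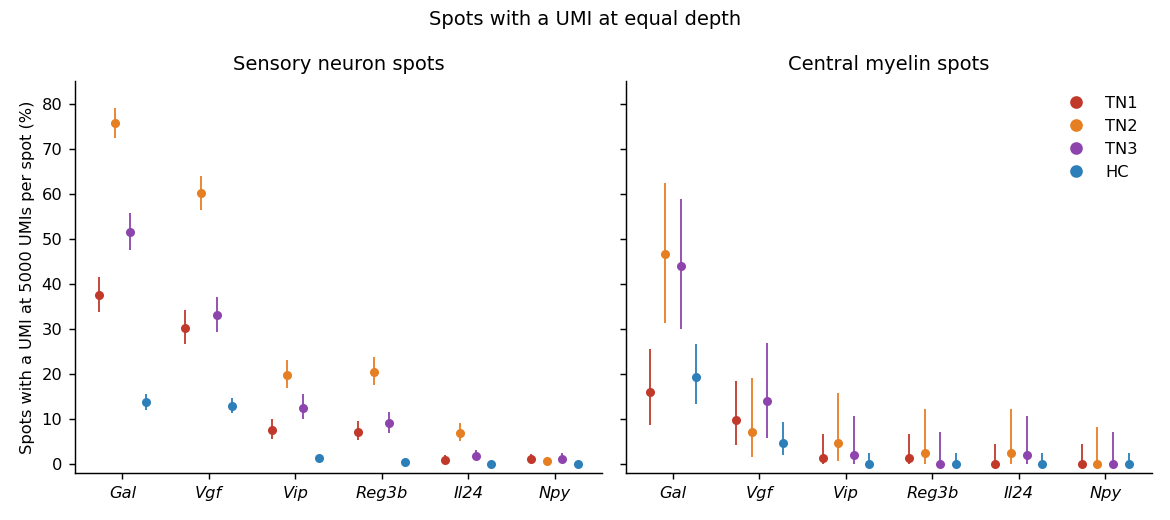
The share of spots with at least 1 UMI of each gene after thinning every spot to 5000 UMIs, in percent, for sensory neuron spots (left) and central myelin spots (right) of each area. Bars are exact 95% binomial intervals. In sensory neuron spots the TN areas lie above HC for all 6 genes, while Gal is also in up to 46.5% of central myelin spots.

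Across the tissue of the TN areas the transcripts lay mostly in the sensory neuron spots. Detection beside sensory neuron genes was known when the members were chosen, so the values that follow are a description. Of the UMIs of each gene in a TN area, these spots held 81.9% to 92.6% for Gal, 86.7% to 93.4% for Vip, 80.5% to 92.9% for Vgf, 85.5% to 93.4% for Reg3b, 79.6% to 98.4% for Il24 and 71.1% to 93.5% for Npy. Of the UMIs of all genes the same spots held 62.8% in TN1, 67.2% in TN2 and 49.3% in TN3, less than of any member in the same area. In HC they held 82.5% of the Gal UMIs but 90.6% of all UMIs. Other spots were classed by the marker list with the highest relative rate, and classes with at least 20 spots in an area were compared. In each TN area Gal, Vip, Vgf and Reg3b stood higher in sensory neuron spots than in every other class. The nearest class lay 1.76 to 7.53 times below, and was that of central myelin for Gal in all 3 areas. In TN1 Vgf also stood at 59.7 CPM in spots led by brainstem neuron genes such as Gad1 and Slc6a5. Il24 in TN3 was nearly as high in connective tissue spots (4.51 CPM, from 10 UMIs) as in sensory neuron spots (4.65 CPM). Npy in TN1 and TN3 was at 3.59 and 2.88 CPM in astrocyte spots, which rest on 1 and 5 UMIs.

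HC differed from TN in where Gal lay. Its level was 59.9 CPM in central myelin spots (121 UMIs) and 50.6 CPM in astrocyte spots (72 UMIs), both above the 26.1 CPM of sensory neuron spots. Vip and Reg3b had 0 UMIs in both of these classes of HC. Vgf stood at 6.93 and 6.32 CPM in them, below its 32.4 CPM in sensory neuron spots.

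**Figure D3:**
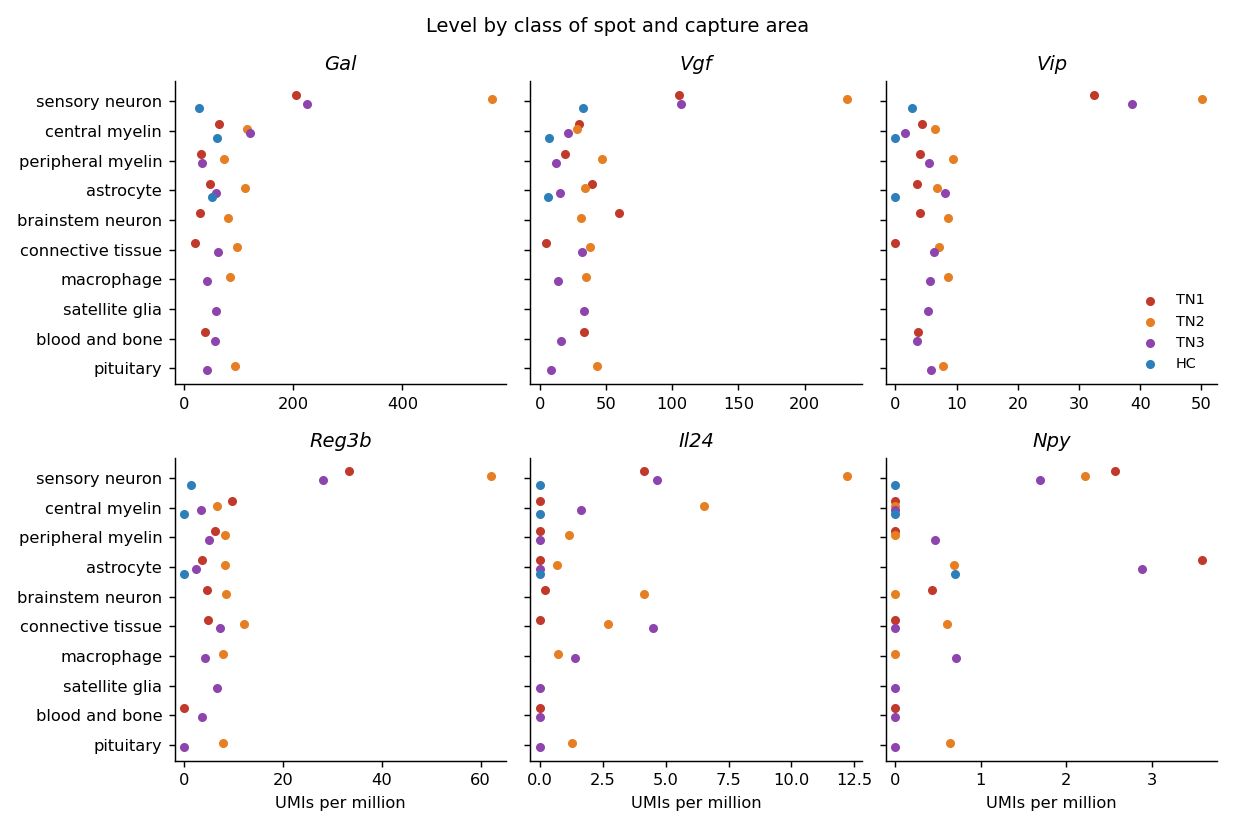
The level of each gene in CPM by class of spot, with 1 point per capture area for classes of at least 20 spots. Sensory neuron spots of the TN areas lie farthest to the right for Gal, Vgf, Vip and Reg3b. For Npy, 2 points of the astrocyte class lie as far right but rest on 1 and 5 UMIs.

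Atf3 stood at 116, 302 and 169 CPM in the sensory neuron spots of TN1, TN2 and TN3 and at 5.26 CPM in HC. TN2 lay highest, as it did for Gal, Vgf, Vip, Reg3b and Il24. Some other classes of spot in the TN areas held Atf3 at like levels. It stood at 111 CPM in connective tissue spots of TN1, at 273 CPM in macrophage spots of TN2 and at 261 CPM in macrophage spots of TN3, and at 5000 UMIs it was in 49.2% of the peripheral myelin spots of TN3. A spot with Atf3 is therefore not by that alone a spot with an injured neuron. Spots with an Atf3 UMI at 5000 UMIs numbered 158 of 599 in TN1, 510 of 681 in TN2, 311 of 599 in TN3 and 39 of 1536 in HC. Detection beside Atf3 was part of how the genes were chosen, and the counts are a description.

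In TN1, 28 of the 45 spots with Vip also held Atf3, where independent shares would give 11.9. The counts were 110 against 101 in TN2 and 51 against 38.9 in TN3. For Reg3b they were 25 against 11.3, 113 against 104 and 39 against 28.0. Gal, a gene of many more spots, shared 87 spots with Atf3 in TN1 against 59.3 by independence, 402 against 386 in TN2 and 180 against 160 in TN3. The excess was smallest in TN2, where 74.9% of spots held Atf3. Vgf and Il24 lay above independence in all 3 areas as well, and Npy in TN1 and TN3, with 3 of 6 and 6 of 7 spots, but not in TN2, with 2 of 4. In HC only 4 of the 211 spots with Gal held Atf3 and 4 of the 198 with Vgf, against 5.36 and 5.03 by independence. At 2000 UMIs, where counts are lower, Gal and Vip stayed above independence with Atf3 in all 3 TN areas, and Vgf, Reg3b and Il24 no longer did. In TN1 they then shared 9 spots with Atf3 against 9.17, 2 against 2.13 and 0 against 0.213. Of the 10681 other genes found in at least 4 spots of each TN area at 5000 UMIs, 15.5% lay above independence with Atf3 in all 3 areas.

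The levels of Gal, Vgf and Vip were higher in each further bin of Atf3. Among spots of TN1 with 0, 1, and 2 or 3 Atf3 UMIs at 5000 UMIs, Vip stood at 17.8, 52.9 and 79.4 CPM. In TN3 it stood at 24.0, 40.8 and 73.9 CPM. In TN2 the values were 29.0, 45.9 and 64.8 CPM, with 68.4 CPM in spots with 4 or more. Gal went from 403 to 462, 684 and 924 CPM over the same bins of TN2. It went from 153 to 269 and 396 CPM in TN1, and from 135 to 248 and 411 CPM in TN3. Vgf followed the same order in each TN area, from 80.1 to 186 CPM in TN1, 192 to 304 in TN2 and 80.0 to 151 in TN3. In TN2 the last step of Vip lay within counting error. Reg3b reached 98.9 CPM in the highest bin of TN2, but in TN3 it stood at 35.4 and 34.1 CPM in the upper bins, which did not differ beyond counting error. Il24 and Npy were higher in each further bin of TN1 and TN3 but not of TN2. In TN1 and TN3 the intervals of neighbouring bins overlapped for both genes, except for the last 2 bins of Il24 in TN3. In TN2 Il24 stood at 10.5, 9.06, 14.8 and 18.8 CPM and Npy at 1.88, 1.67, 2.44 and 4.47 CPM. For both genes the intervals of the first 2 bins of TN2 overlapped. In HC, spots with 0 and 1 Atf3 UMI had Gal at 26.1 and 20.1 CPM and Vgf at 32.5 and 25.2 CPM, with overlapping intervals, while Vip stood at 2.59 and, from 8 UMIs, at 8.05 CPM. Depth moved with the bins in TN1, from a median of 12379 to 36165 UMIs per spot, but little in TN2, from 35304 to between 36159 and 37259. Its part in the TN1 values was not tested.

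**Figure D4:**
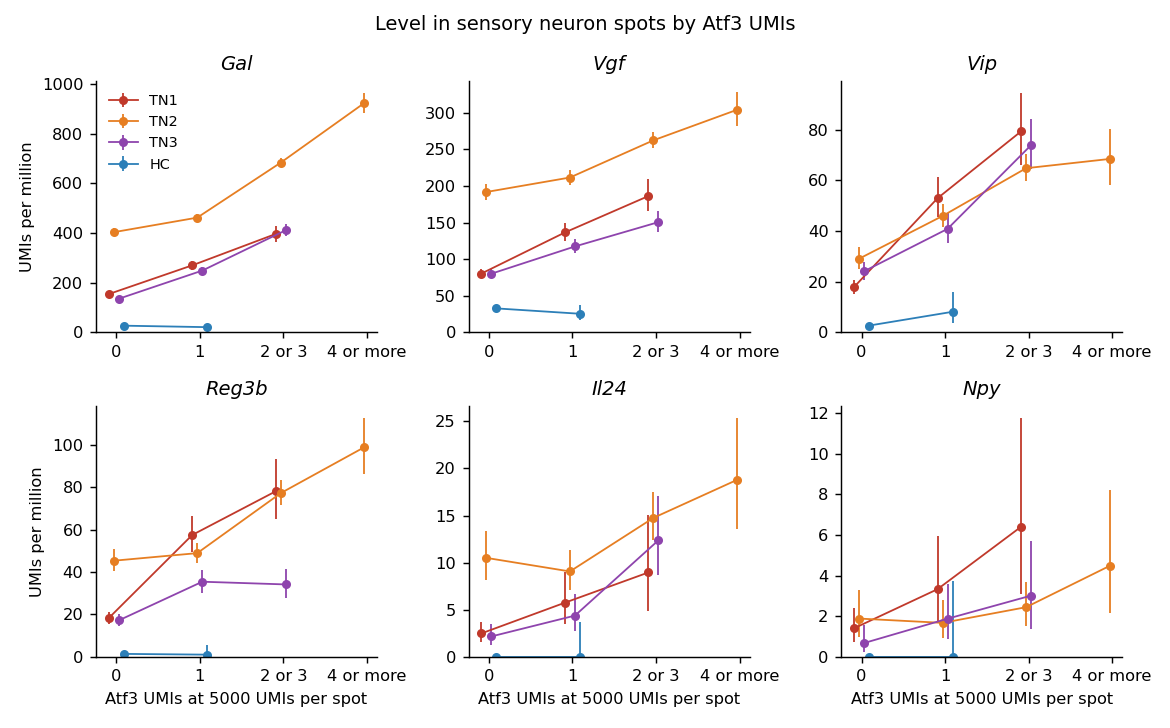
The level of each gene in CPM, against the number of Atf3 UMIs in the same spot after thinning to 5000 UMIs, for sensory neuron spots of each area. Bars are exact 95% Poisson intervals and bins of fewer than 20 spots are left out. Gal, Vgf and Vip rise from bin to bin in every TN area, and in HC the intervals of both bins overlap for Gal and Vgf.

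Summed over spots with and without Atf3 and compared within areas, all 6 genes were higher with Atf3 in each of TN1, TN2 and TN3. The log2 differences fitted by edgeR were 1.26 ± 0.104 (SE) for Vip, 1.25 ± 0.348 for Npy, 1.09 ± 0.118 for Reg3b, 0.92 ± 0.078 for Gal, 0.88 ± 0.213 for Il24 and 0.65 ± 0.079 for Vgf. Over all 11449 genes tested, 0.935% were called higher and 0.812% lower with Atf3, which for the members says no more than how they were chosen. All 9 tested genes of a nerve injury list (Atf3, by which the spots were split, Csrp3, Cckbr, Gadd45a, Ecel1, Sprr1a, Gap43, Jun and Stmn4) were called higher with Atf3, and the difference of Csrp3, a muscle LIM protein that injured neurons make, was 0.99 ± 0.085 on the log2 scale (edgeR, adjusted p = 1.6e-11). The list was drawn up with earlier results of these data known, so its count of calls is a description. Of the alternatives that gave a value, the call held in 11 of 12 for Atf3, Csrp3 and Gadd45a and in 10 of 12 for Gap43 and Jun. It held in 8 of 11 for Ecel1, in 6 of 11 for Cckbr and Sprr1a and in 5 of 12 for Stmn4. Without TN1, 6 of the 9 calls were lost, with edgeR adjusted p from 0.115 for Gap43 to 0.615 for Cckbr. Changes over all genes were ranked among those past the threshold in 1 direction in all 3 areas. The largest rises were those of Dkk2 (1.78), Defb36 (1.77), Ptprh (1.63), Hpd (1.41) and Cldn4 (1.32), as log2 differences. The largest falls were those of Ccl21 (−2.03), Ca3 (−1.72), RatNP-3b (−1.37), Np4 (−1.20) and Defa5 (−1.20). Ccl21 stood at 0 CPM in both sets of spots of TN1, so its fall rests on TN2 and TN3. Other genes of this ranking also stood low in an area. As CPM with TMM, with against without Atf3, Dkk2 was at 1.22 against 0 in TN3 and Hpd at 0.702 against 0.464 in TN2. Ca3 was at 0.196 against 2.73 in TN1. Genes of neighbouring tissue moved with the split too, since 5 of 8 central myelin genes and 4 of 6 astrocyte genes tested were called lower in spots with Atf3. The part of tissue position in the members' values was not tested.

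Of the other neuropeptide genes more were called lower than higher. Of 17 precursor genes tested outside the 6, Adcyap1 was called higher with Atf3 and Nmb, Tac1 and Penk lower, that is 5.88% and 17.6% beside the 0.935% and 0.812% over all genes, at a median log2 difference of −0.03 beside −0.01 over all genes. Adcyap1, the precursor of PACAP, a peptide of the same family as Vip, was 0.40 ± 0.075 higher (edgeR, adjusted p = 0.0011). Tac1, the precursor of substance P, fell by 0.32 ± 0.074 on the log2 scale (edgeR, adjusted p = 0.011), and Nmb, neuromedin B, fell by 0.41 ± 0.084 (edgeR, adjusted p = 0.0034). Each of these calls needed 1 area: without TN1 that of Adcyap1 (0.31, adjusted p = 0.24) and that of Nmb (−0.32, adjusted p = 0.27) were lost, and without TN2 that of Tac1 (−0.20, adjusted p = 0.30). The fall of Penk, proenkephalin, by 0.96 ± 0.214 (edgeR, adjusted p = 0.0075) was seen in 2 of 3 areas, and without TN1 the log2 difference was −0.19 (adjusted p = 0.999). Of 13 granin and peptide processing genes, Scg2, secretogranin II, was the 1 gene called, and was lower (log2 difference −0.34 ± 0.069, edgeR, adjusted p = 0.0030). Without TN1 Scg2 was no longer called (−0.36, adjusted p = 0.081), and over all genes 39 were called in place of 200.

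The 6 genes were tested between spots rich in large-fibre and in small-fibre genes. No member and neither the TN against HC nor the Atf3 contrast entered this split. Detection beside sensory neuron genes was among the values known when the members were chosen, however, and the split is built from such genes, so these p-values are not fully independent of the choice. Within each TN area the sensory neuron spots were split at the median ratio of large-fibre to small-fibre genes. The large-fibre genes were Nefh, Nefm, Ntrk3 and Pvalb, and the small-fibre genes included Scn10a, Calca, Tac1, Trpv1 and P2rx3. Of the 4 large-fibre genes, 3 passed the count filter of this test, and Ntrk3 was in 0 of 599 thinned spots of TN1. In the large-fibre spots of TN1 the 4 genes summed to 9365 CPM and Pvalb stood at 341 CPM (with TMM), so Nefh and Nefm made up most of the sum there. Genes of both lists also differed in the other contrasts. All 4 large-fibre and 6 of 7 small-fibre genes tested were lower than HC in all 3 TN areas. In spots with Atf3, 1 of 3 large-fibre and 3 of 7 small-fibre genes tested were called lower by edgeR. The part of these differences in the split was not tested. Large-fibre neurons have thick myelinated axons and carry touch and position, and small-fibre neurons carry mostly pain, itch and temperature. Of 11539 genes, 2.78% were called higher and 1.13% lower in the large-fibre spots by edgeR with the area as a block. Among the 6, 1 was called higher and 0 lower.

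Reg3b was the gene that passed. It stood at 41.7 against 26.4 CPM (with TMM normalization, large-fibre against small-fibre spots) in TN1, 85.3 against 38.7 in TN2 and 35.4 against 20.8 in TN3. This is a log2 difference of 0.89 ± 0.104 (SE, edgeR, adjusted p = 0.0072), higher in 3 of 3 areas. The call was kept without any 1 of the areas, with adjusted p from 8.66e-05 to 0.00852. It was lost at a lower cut for sensory neuron spots (750 CPM, 0.70, adjusted p = 0.218) and without the area as a block (adjusted p = 0.999). Between the sets, the summed level of satellite glia genes in large-fibre against small-fibre spots was 9393 against 8694, 14651 against 13647 and 11312 against 10503, of connective tissue genes 1071 against 1944, 4181 against 6189 and 4658 against 4849, and of the 12 sensory neuron genes 5126 against 7764, 5188 against 6070 and 4254 against 6118 CPM in TN1, TN2 and TN3. Their part in the result was not tested.

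Vip was higher in the large-fibre spots of TN1, at 44.6 against 22.5 CPM, and of TN2, at 68.8 against 31.2, but not of TN3, at 38.3 against 40.3. Its log2 difference was 0.71 ± 0.199 (edgeR, adjusted p = 0.093), and without TN3 it was 1.06 (adjusted p = 0.000986). For Npy the difference was 0.57 ± 0.261 (edgeR, adjusted p = 0.26), with all 3 areas in 1 direction but few counts. Gal differed in direction between areas. It was lower in the large-fibre spots of TN1 (153 against 252 CPM) and TN3 (210 against 250 CPM) and higher in those of TN2 (705 against 414 CPM), for a log2 difference of −0.05 ± 0.225 (edgeR, adjusted p = 0.94). Without TN2 it fell by 0.52 on the log2 scale (edgeR, adjusted p = 0.013). Vgf (0.14 ± 0.157, edgeR, adjusted p = 0.65) and Il24 (−0.27 ± 0.280, edgeR, adjusted p = 0.64) showed the same split, with TN2 higher and TN1 and TN3 lower in large-fibre spots.

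**Figure D5:**
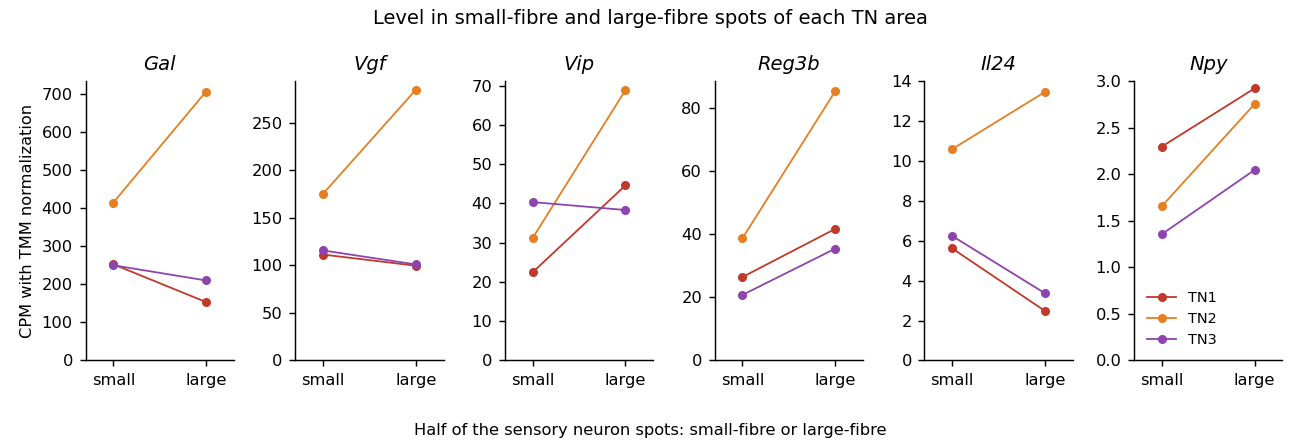
The level of each gene, as CPM with TMM normalization, in the small-fibre and the large-fibre set of sensory neuron spots, with 1 line per TN area. Reg3b and Npy rise from small to large in all 3 areas, while Gal, Vgf and Il24 rise in TN2 and fall in TN1 and TN3.

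In the same test, Calca, Calcb and Tac1 were lower in large-fibre spots, of which Calca and Tac1 were used in the split. These are 16.7% of the 18 other neuropeptide genes tested. Among the same 18 genes Nts, the precursor of neurotensin, was called higher, by 1.07 ± 0.230 on the log2 scale (edgeR, adjusted p = 0.042). The call of Nts was lost without any 1 area, with adjusted p from 0.0699 to 0.099. The granins and peptide processing genes divided, with 4 of 14 called higher (28.6%, beside 2.78% over all genes) and 1 lower (7.14%, beside 1.13%). Of the 4, Cadps2, a factor of dense-core vesicle release, lost its call in 9 of 13 alternatives (0.50, edgeR, adjusted p = 0.037), and Scg5, secretogranin V, in 3 of 13 (0.40, edgeR, adjusted p = 0.025). Scg2 was lower by a log2 difference of −0.88 ± 0.062 (edgeR, adjusted p = 0.00056), whereas Chga (0.67 ± 0.0996, edgeR, adjusted p = 0.015) and Chgb (0.58 ± 0.090, edgeR, adjusted p = 0.016), chromogranins A and B, were higher. Of the receptors, Npy1r, through which neuropeptide Y inhibits sensory neurons, was lower in large-fibre spots by a log2 difference of −0.84 ± 0.184 (edgeR, adjusted p = 0.045), a call that was lost without TN3 (adjusted p = 0.113). Without TN3 Chgb was not called either (adjusted p = 0.0528). Changes over all genes were again ranked among those past the threshold in 1 direction in all 3 areas. The largest rises were those of AABR07054487.1 (1.90), Gnmt (1.69), Smpx (1.45), Grifin (1.40) and Amhr2 (1.37). The largest falls were those of Ccl21 (−1.91), Tac1 (−1.60), Chrna3 (−1.45), Calca (−1.36) and Igfbpl1 (−1.35). Ccl21 stood at 0 CPM in both sets of TN1 here too. Some of the rises also stood low in TN2. As CPM with TMM, large-fibre against small-fibre, AABR07054487.1 was there at 1.42 against 0.289 and Grifin at 0.709 against 0.577.

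Co-detection with single sensory neuron genes was counted as well. Detection beside such genes was among the values known when the members were chosen, so the counts are a description. P2rx3 shared more spots with each of the 6 genes than independence would give in all 3 TN areas. The ratio ran from 1.01 (Reg3b in TN1) to 1.69 (Npy in TN2, where 4 spots held Npy). With a given member, 8.84% (Npy) to 15.9% (Vgf) of the 10681 other genes lay above independence in all 3 areas. Spots with Vip held P2rx3, an ATP-gated channel of small non-peptidergic neurons, in 71.1%, 70.4% and 52.0% of cases in TN1, TN2 and TN3, against 59.9%, 59.3% and 48.7% of all spots. For the small-fibre sodium channel gene Scn10a the shares were 37.8%, 32.6% and 30.7% against 48.4%, 28.6% and 36.1%, above all spots in TN2 and below in TN1 and TN3. Calca was in 80.0%, 91.1% and 90.7% of spots with Vip and in 85%, 92.4% and 91.8% of all. Trpv1, the capsaicin receptor of small-fibre neurons, shared fewer spots with Vip than independence would give in all 3 TN areas, at 0.82, 0.82 and 0.84 times. So did Pvalb, 1 of the large-fibre genes, at 0.63, 0.90 and 0.77 times, although Vip stood higher in the large-fibre spots of TN1 and TN2. Single genes of either fibre list thus did not all go the same way with Vip. Spots can hold several neurons, so these shares do not place genes in 1 cell.

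The genes also met each other. All 6 were chosen for higher counts in TN and for detection beside Atf3, so the counts that follow are a description. Of the 15 pairs among the 6, 12 shared more spots than independence would give in all 3 TN areas, and the exceptions were Vip with Il24, Npy with Reg3b and Npy with Il24, all with 1 or more genes of few counts. At 2000 UMIs, a setting added for the pairs after seeing the data, 7 of the 15 pairs did, and Gal with Npy, Gal with Il24, Vip with Npy, Npy with Vgf and Reg3b with Il24 dropped out as well. The 10682 genes found in at least 4 spots of each TN area at 5000 UMIs make 57047221 pairs. Of these, 12% lay above independence in all 3 areas, and 10.0% of pairs under the same limit did at 2000 UMIs. At that depth Npy, in 2 spots of TN3, and Il24, in 2 spots of TN1, were below the limit. Each pair not above independence at 2000 UMIs held Npy or Il24, so the 10.0% is not a like share for them. Gal and Reg3b, for example, shared 27 spots in TN1 at 5000 UMIs against 16.2 by independence, 120 against 105 in TN2 and 42 against 27.9 in TN3. At 5000 UMIs, 2 or more of the 6 genes were in 21.9% of TN1, 62.1% of TN2 and 29.7% of TN3 spots, and in 2.34% of HC spots. At least 3 of the genes were in 5.34%, 25.7% and 8.68% of TN spots and in 0 of 1536 in HC.

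Across the sensory neuron spots of each TN area, the genes most like each member were ranked by the mean over areas of Pearson's r of log2 levels, over 704, 700 and 685 spots and 10817 genes. The spots of an area share a library, and both depth and the amount of neuron in a spot enter these values. The 5 nearest to Gal were Dusp26, Csrp3, Hspb1, Tubb2b and Tuba1a (mean r 0.51 to 0.57). The 5 nearest to Vgf were Hspb1, Tubb3, Prph, Dusp26 and Stmn2 (0.54 to 0.56). For Vip they were LOC100912228, Gal, Vgf, Gap43 and Stmn2 (0.38 to 0.41), and for Reg3b they were Gal, Vgf, Cbln2, Stmn2 and Tubb3 (0.35 to 0.39). For Il24 they were Gal, Mmd, Dusp26, Gap43 and Hspb1 (0.26 to 0.31), and Npy had too few UMIs to rank. Gal was thus among the nearest genes of Vip, Reg3b and Il24, also when all TN spots were used. Over all TN spots 1 of the 5 genes nearest to Gal (Dusp26) remained and the others were Tubb3, Stmn2, Prph and Gap43, whereas 3 of 5 remained for Reg3b and 4 of 5 for Vip, Vgf and Il24. Atf3 ranked 14 for Gal, 12 for Vip, 26 for Vgf, 15 for Reg3b and 14 for Il24. The members were chosen for higher counts in TN and for detection beside Atf3, so these ranks are a description. Calca, 1 of the 12 genes that define the sensory neuron spots, ranked between 1226 and 6555.

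The peptides of the ganglion outside the 6 were compared between TN and HC by lists. Of 22 other neuropeptide genes tested, 7 were higher and 5 lower than HC in all 3 TN areas, or 31.8% and 22.7%. Over all 13840 genes tested 28.2% were higher and 29.6% lower in all 3, so these shares lay near those of any gene. The median log2 difference was 0.11 beside 0.04 over all genes. In edgeR 0 passed the adjusted threshold and 3 had an unadjusted p under 0.05. Ucn, the precursor of urocortin, a corticotropin-releasing factor relative, stood at 5.14, 8.32 and 3.14 CPM in TN1, TN2 and TN3 and at 0.294 CPM in HC (11 UMIs), a log2 difference of 4.14 ± 0.798 (edgeR, adjusted p = 0.60). Crh (2.69 ± 1.10), Cck (1.70 ± 0.816) and Pdyn (1.28 ± 0.761) had the next widest differences, each with an adjusted p of at least 0.60 in edgeR. Calca, the CGRP precursor, stood at 914, 1087 and 1005 CPM in TN and 1100 CPM in HC. Tac1 stood at 815, 527 and 749 CPM in TN and 976 in HC. Of 10 nerve injury genes, for comparison, 9 (90%) were higher in all 3 TN areas, with a median log2 difference of 2.54, and none of these (0) passed the adjusted threshold in edgeR either. That list was drawn up with earlier results of these data known, so its share is a description.

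Of 14 granin and peptide processing genes, 1 was higher and 8 were lower in all 3 TN areas, or 7.14% and 57.1% beside 28.2% and 29.6% of all genes, with a median log2 difference of −0.42. The sensory neuron list went the same way. Of its 11 genes tested, 1 was higher and 7 (63.6%) were lower in all 3 TN areas, with a median of −0.61. The part of neuron content in the granin values was not tested. The granins Scg2 (−0.69 ± 0.372) and Chga (−0.59 ± 0.413) lay below HC in all 3 TN areas, where Vgf lay above it. The 1 higher gene was Pcsk1, a convertase that cuts neuropeptide precursors, at 35.8, 44.1 and 47.7 CPM in TN and 27.1 in HC (0.58 ± 0.248). In edgeR 0 of the 14 passed the threshold and 0 had an unadjusted p under 0.05, with adjusted p of 0.61 for Scg2, 0.65 for Chga and 0.60 for Pcsk1.

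Of 15 receptor genes of the 6 products, 8 passed the filter on low counts, and of these 2 were higher and 2 lower than HC in all 3 TN areas, or 25.0% each way, near the 28.2% and 29.6% of all genes. In edgeR 0 were called and 0 had an unadjusted p under 0.05. C3ar1, a complement receptor that also binds a peptide of VGF and is known from macrophages, had the widest difference, at 0.333, 0.821 and 0.758 CPM with TMM in TN1, TN2 and TN3 and 0.194 in HC (1.71 ± 0.854, edgeR, adjusted p = 0.60). Galr2, a galanin receptor, stood at 16.6, 22.8 and 17.7 CPM in TN and 13.4 in HC (log2 difference 0.44 ± 0.273, edgeR, adjusted p = 0.63), while Galr1 had at most 9 UMIs and Galr3 had 0 in any area. Vipr2 stood at 3.15 to 3.72 CPM in TN and 4.78 in HC. The receptor genes Il20ra and Il20rb of Il24 had at most 4 UMIs in the sensory neuron spots of any area. Among the relatives of the 6, Reg3a had 11, 44 and 15 UMIs in TN1, TN2 and TN3 and 16 in HC. These counts come from sums of 14795908, 26070357, 15906534 and 37448682 UMIs of all genes. Relative to these sums Reg3a was higher than HC in all 3 TN areas (log2 difference 1.33), as were 28.2% of all genes. Reg3g had 0, 3, 4 and 0 UMIs, and Reg1a, Reg4, Il20, Il22 and Il10 had 0 in all.

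In HC the few spots with many UMIs of a member were looked at by depth and Atf3. Of the 4 HC spots with at least 5 Vip UMIs, 2 held Atf3, against 8.94% of the spots without Vip, at median depths of 34373 and 14462 UMIs. Of the 25 spots with at least 5 Gal UMIs, 6 held Atf3, or 24.0% against 8.35% of those without Gal, at 31904 and 12847 UMIs. Of the 28 such spots of Vgf, 3 held Atf3, or 10.7% against 6.72%, at 57954.5 and 10775 UMIs. Of the 2 spots with at least 5 Reg3b UMIs, 0 held Atf3. The injury gene Csrp3 was in 1 of the 4 Vip spots but in 0 of the 25 Gal spots, 0 of the 28 Vgf spots and 0 of the 2 Reg3b spots. The part of depth in these shares was not tested.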

How the data were processed

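The authors deposited raw UMI counts in 1 matrix for all 4 capture areas, told apart by the number after each barcode, with Space Ranger 1.2.0 named in the matrix header and STAR in the submitters' processing notes, and the sources used here do not give the genome build or annotation. All 6773 spots were kept, no doublet caller was run on spots, and 0 columns of the files were left unused. Spatial barcodes repeat between areas by design, and 2337 of 3573 distinct barcodes occurred in more than 1 area. The members and the gene lists were chosen with earlier results of these data known, and 161 of 164 listed genes were found once in the matrix. Some genes of the lists are not reported here by name.

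Levels are UMIs of a gene per 1000000 UMIs of the same spots (CPM), with exact 95% Poisson intervals, and shares have exact 95% binomial (Clopper-Pearson) intervals, all for counting error only. A gene with 0 UMIs was set to a floor of 3 counts in the sum. Sensory neuron spots had at least 1000 UMIs and at least 1500 CPM from the 12-gene list, and the summed level lay between 750 and 3000 CPM in 874 (TN1), 462 (TN2), 834 (TN3) and 593 (HC) spots. Other spots took the marker list with the highest rate relative to its mean over spots. For shares and co-detection each spot was thinned at random to 5000 UMIs.

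Sums per area, or per area and set of spots, were tested with the quasi-likelihood test of edgeR 4.0.16 in R 4.3.3 with TMM normalization, filterByExpr and Benjamini-Hochberg adjustment over all genes tested at a threshold of 0.05. The TN against HC fit had no covariate and takes the spread of the single HC area to be that of TN, and the fits within TN had the area as a block. p-values measure the spread between these areas only. The SE printed with a log2 difference is the size of that difference over the square root of the quasi-likelihood F. It was worked out from the test and is not an output of edgeR. DESeq2 1.42.0 was an alternative test, and scripts used numpy 2.4.6 and scipy 1.17.1. Steps were tested on simulated data. The members were part of all fits, but no p is printed for them in the contrasts they were chosen on. Likeness is Pearson's r of log2 (UMIs per 10000 + 1) for members with at least 300 UMIs.

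Named genes were all members and the 5 genes most like each member. Listed genes were named if past the threshold or among the 4 largest changes of their list in 1 direction in all 3 TN areas. A part of these is printed. Each contrast within TN gave its 5 largest rises and falls past the threshold in 1 direction in all 3 areas. Other genes are named for their role or their values in HC and were picked after their values were seen. The other choices tried were normalization, filter, test, genes in the library size, cut and list for sensory neuron spots, depth of thinning, area block and leaving out each area.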

Additional observations from a re-analysis of the deposited data

How the results depend on the processing

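All 6 genes stayed at least 2-fold above HC in every TN area over all spots, with both other lists or cuts that were planned, with TMM and at a cut of 750 CPM, a setting chosen after seeing the data. The cause of the changes that follow was not tested. For TN against HC in sensory neuron spots edgeR called 0 genes, against 123 with DESeq2, 1 with no filter on low counts, 1 at a cut of 3000 CPM and 0 to 1248 without 1 area, the highest without TN1. Over all spots the count was 0, against 158 with DESeq2 and 0 to 2171 without 1 area, again highest without TN1. For large-fibre against small-fibre spots the 451 calls became 207 with DESeq2, 88 at 750 CPM, 94 with the 6-gene list and 133 to 672 without 1 area, the lowest without TN3. For spots with against without Atf3 the 200 calls became 32 with DESeq2, 425 at 750 CPM, 97 with Atf3 read at 2000 UMIs and 39 to 332 without 1 area, the lowest without TN1 and the highest without TN2. Without the area as a replicate block, 0 genes were called in either contrast within TN, and the log2 difference of Gal between fibre sets was 0.22. Lying above independence with Atf3 in all 3 TN areas held for 5 of the 6 genes at 5000 UMIs and for 2 (Gal and Vip) at 2000 UMIs, and of the 15 pairs among the 6 genes 12 and 7 lay above independence. Without 1 area, the log2 difference between fibre sets ran from −0.52 (without TN2, called) to 0.28 (without TN1) for Gal, with 0.04 without TN3, from −0.22 (without TN2) to 0.30 (without TN1) for Vgf, and from −1.05 (without TN2) to 0.0021 (without TN1) for Il24. At 750 CPM the Atf3 difference turned for Vipr2 (−0.18) and Stmn4 (−0.052). No paired analysis was possible for TN against HC because HC is a single area that no label ties to 1 of the TN animals. The low counts of Npy and Il24 limit what their shares can show.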
